A study of Mus musculus with 6 samples.

Results

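The genes described here encode factors that shorten, decap and degrade messenger RNA. They were chosen by name from the array's probe table: symbols that start with EXOSC, PABPC, UPF, SMG or CNOT followed by a digit, and the decapping factors, exonucleases, deadenylases and adaptors DCP1A, DCP1B, DCP2, DCPS, EDC3, EDC4, XRN1, XRN2, PAN2, PAN3, PARN, TOB1 and TOB2. The rule found 36 probes for 32 genes, out of 17742 named genes. No probe used here carried a CNOT symbol, so the core subunits of the CCR4-NOT deadenylase under those names were not analysed here.

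The cells were BV2, an immortalised line of mouse microglia, the macrophages of the brain, and RNA was taken 1 h after adenine, a purine base, or no addition. There were 2 arrays each of untreated control cells, cells given a lower adenine dose and cells given a higher dose. Titles and treatment protocol put the doses at 20 and 80 µM and the sample characteristics put them at 80 and 250 µM, so only their order is used. All groups share the same single cell line, and its labels describe no genotype change. Whether replicate arrays had cultures of their own is not given by the sample titles, so the errors may cover technical spread alone.

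Most mRNAs end in a poly(A) tail coated by poly(A)-binding protein. Decay usually starts when deadenylases, the PAN2-PAN3 and CCR4-NOT complexes, remove that tail. The body is then destroyed from the 5′ end, after decapping by DCP2, by the exonuclease XRN1, or from the 3′ end by the exosome, a barrel of EXOSC subunits. A surveillance branch, nonsense-mediated decay, uses the UPF and SMG proteins to recognise mRNAs with premature stop codons. In macrophages these routes are known for the rapid turnover of cytokine mRNAs.

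Values are normalized intensities in array units. Levels of different probes cannot be set against each other, and in RNA from whole cultures fewer cells of a type and less RNA per cell cannot be told apart. The deposited values spanned −21 to 65489 units, and array medians lay between 125 and 170 units. Over probes brighter than the median probe, the 2 higher-dose arrays had a Pearson r of 0.989, the remaining 4 arrays had 0.978 to 0.986 among themselves, and r between these sets was 0.929 to 0.941. Of the 12 microglia and macrophage markers listed, 10 were measured, and their log2 changes at the higher dose against control were 5 positive and 5 negative (median 0.11), with 2 that rose and 0 that fell. Their summed intensity, which weighs bright probes most, was 98959 to 111938 units at the higher dose and 74789 to 77236 units in controls. Among these, Cx3cr1 lay under the median probe, at 103.7 and 88.7 units at the higher dose and 118.7 and 92.8 units in controls. All 5 fibroblast markers lay under the median probe (summed, 113.8 to 130.8 units at the higher dose and 135.7 to 136.7 units in controls), as did 3 of 4 astrocyte and 2 of 3 neuron markers. Of 4 oligodendrocyte markers, 3 lay above it, summing over all 4 to 2101 to 2379 units at the higher dose and 1735 to 2153 units in controls. The part of these markers in the results was not tested.

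At the higher dose, 5 of the 32 decay genes fell and 3 rose against control (limma, Benjamini-Hochberg adjusted p under 0.05, with the probe brightest on average standing for each gene). Those that fell were the deadenylation factors Tob1, Parn and Pan2, the exonuclease Xrn2 and the nonsense-mediated decay factor Upf2. Those that rose were the exosome subunits Exosc3, Exosc4 and Exosc5. Over all named genes 5.39% fell, 6.37% rose and 11.8% changed in either direction. Over named genes brighter than the median probe, as 27 of the 32 were, these shares were 7.7%, 9.55% and 17.2%. The median log2 change of the 32 genes was −0.15, against −0.018 for all named genes, with 14 positive and 18 negative values. Without control replicate 1 this median was 0.00589 and without control replicate 2 it was −0.328. The adaptors, deadenylases and 5′ to 3′ exonucleases, roles of 2, 3 and 2 genes, had negative values in 7 of 7 genes. Decapping genes had negative values in 5 of 6, nonsense-mediated decay genes in 2 of 4 and poly(A)-binding protein genes in 2 of 6. Of the exosome subunits, 7 of 9 had positive values by the brightest probe of each. The value of Pan3 turned positive with some arrays left out (up to 0.0351). Of the 17742 named genes, 9129 had negative and 8599 had positive values, and the difference between roles was not tested.

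The changes at the higher dose against control were refitted with each array left out in turn. Tob1 ran from −2.42 to −2.07 in log2, Parn from −1.83 to −1.60 and Pan2 from −1.05 to −0.96. Xrn2 ran from −1.11 to −0.77 and Upf2 from −0.93 to −0.77. Exosc3 ran from 0.81 to 1.05, Exosc4 from 0.86 to 1.31 and Exosc5 from 0.97 to 1.17. Calls were lost in these fits, each of which leaves 1 array in a group, and the reason was not tested. No call held without a control or higher-dose array, and some held without a lower-dose array. Shares of all named genes in these fits are not given here, so calls kept or lost do not set any member apart. Of the 32 genes, 16 had an unadjusted p under 0.05 in the fit to all arrays, as had 31.2% of all named genes. That share is not given for genes brighter than the median probe alone.

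**Figure D1:**
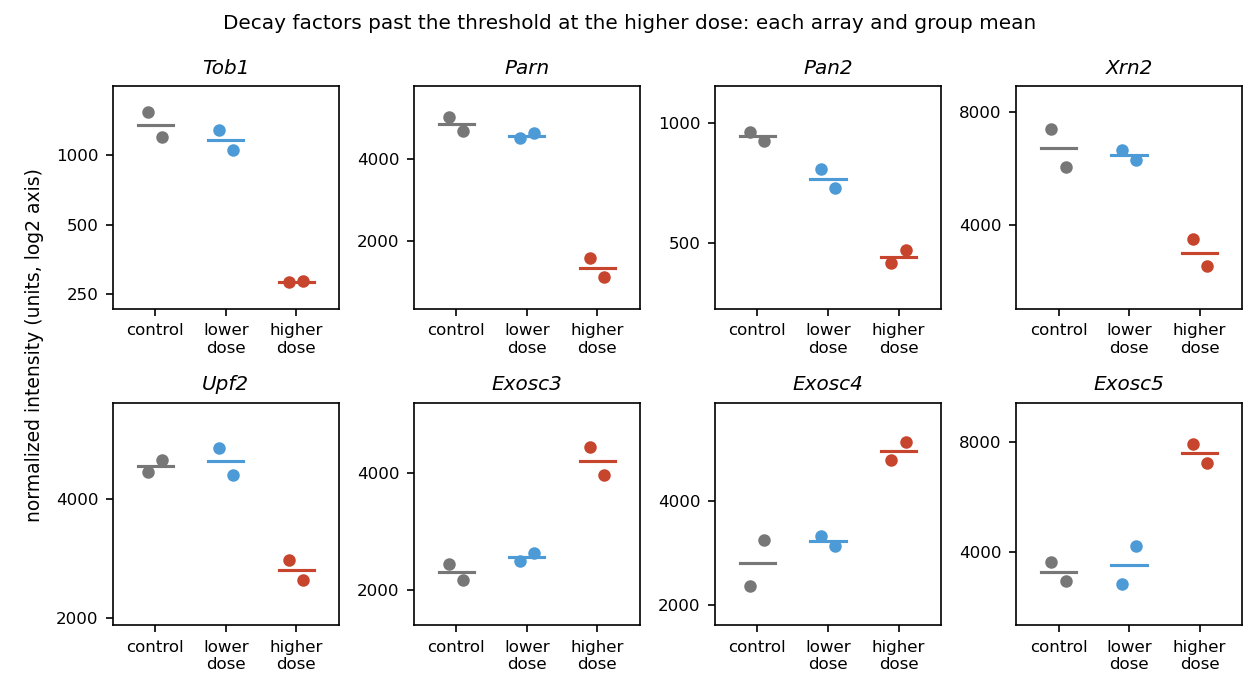
Normalized intensity (vertical, log2 axis) of the 8 called decay genes, by group. Points are single arrays and bars the group means of log2 values; the higher-dose points lie below all others for Tob1, Parn, Pan2, Xrn2 and Upf2 and above all others for Exosc3, Exosc4 and Exosc5.

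Tob1 encodes an antiproliferative adaptor of the BTG/TOB family, which links poly(A)-binding protein to the CCR4-NOT deadenylase. It read 281.8 and 285.3 units in the higher-dose arrays, against 1534 and 1199 units in controls. The higher-dose arrays were thus nearly equal to each other and far under both controls. Tob1 fell 4.78-fold (log2 −2.26 ± 0.20, SE, adjusted p = 0.0185), the largest change of the 32 genes at this dose. The lower-dose arrays read 1280 and 1050 units and overlapped the controls. Its relative Tob2 gave 398.5 and 461.3 units at the higher dose, against 557.2 and 690.2 units in controls. Those arrays also lay apart, and the change did not pass (−0.53 ± 0.19, adjusted p = 0.141).

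Parn encodes the poly(A)-specific ribonuclease, a deadenylase. It read 1736 and 1479 units in the higher-dose arrays, against 5660 and 5038 units in controls. The groups were well separated, and Parn fell 3.33-fold (−1.74 ± 0.17, adjusted p = 0.0186). The lower-dose arrays, at 4770 and 4944 units, lay just under both controls.

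Pan2 is the catalytic subunit of the PAN2-PAN3 deadenylase. It read 446.5 and 480.0 units in the higher-dose arrays, against 950.1 and 900.3 units in controls, so that the groups did not overlap (−0.998 ± 0.15, adjusted p = 0.026). Its lower-dose arrays, at 764.7 and 686.3 units, lay between the other groups. Its partner Pan3, which recruits the catalytic subunit to poly(A)-binding protein, gave 2113 and 1683 units at the higher dose, against 2385 and 1840 units in controls. These overlapped (−0.15 ± 0.21, adjusted p = 0.679). The 2 subunits of this complex therefore had different calls, and the difference between them was not tested.

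Promoter windows of 5 called genes, 3 that fell and 2 that rose, are shown because members moved in both directions. The sequences run from 250 bases before to 50 after the annotated start (RefSeq, build GRCm38.p6), and capitals mark matches on either strand to 6 motifs: the GC box GGGCGG, the CCAAT box CCAAT, the TATA box TATAAA, the cAMP response element TGACGTCA, the ETS core CCGGAAG and the NRF1 motif. Tob1 lies at chr11:94211204-94211503 (plus strand), Parn at chr16:13668121-13668420 (minus), Pan2 at chr10:128303085-128303384 (plus), Exosc3 at chr4:45320567-45320866 (minus) and Exosc5 at chr7:25658903-25659202 (plus).
Tob1: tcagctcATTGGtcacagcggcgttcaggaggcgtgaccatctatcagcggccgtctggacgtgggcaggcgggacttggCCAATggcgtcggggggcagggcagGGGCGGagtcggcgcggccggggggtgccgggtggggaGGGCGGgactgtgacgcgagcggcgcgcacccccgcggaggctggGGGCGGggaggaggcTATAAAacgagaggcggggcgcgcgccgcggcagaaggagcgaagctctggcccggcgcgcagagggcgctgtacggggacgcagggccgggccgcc
Parn: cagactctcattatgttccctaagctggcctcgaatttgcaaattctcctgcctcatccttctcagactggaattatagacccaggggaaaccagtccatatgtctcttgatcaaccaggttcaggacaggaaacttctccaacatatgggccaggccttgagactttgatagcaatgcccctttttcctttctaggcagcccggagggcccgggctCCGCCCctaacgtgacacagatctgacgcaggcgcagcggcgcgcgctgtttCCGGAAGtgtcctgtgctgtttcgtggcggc
Pan2: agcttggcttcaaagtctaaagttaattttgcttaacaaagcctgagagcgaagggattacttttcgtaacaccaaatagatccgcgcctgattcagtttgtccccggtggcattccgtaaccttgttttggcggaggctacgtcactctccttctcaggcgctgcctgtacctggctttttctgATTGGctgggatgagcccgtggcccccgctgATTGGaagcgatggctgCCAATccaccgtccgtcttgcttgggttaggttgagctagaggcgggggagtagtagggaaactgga
Exosc3: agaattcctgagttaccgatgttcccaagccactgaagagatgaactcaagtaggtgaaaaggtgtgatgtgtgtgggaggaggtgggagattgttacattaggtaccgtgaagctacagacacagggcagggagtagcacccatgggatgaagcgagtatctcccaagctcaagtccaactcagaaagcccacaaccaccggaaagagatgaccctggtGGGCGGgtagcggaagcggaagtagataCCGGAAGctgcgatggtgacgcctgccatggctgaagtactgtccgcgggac
Exosc5: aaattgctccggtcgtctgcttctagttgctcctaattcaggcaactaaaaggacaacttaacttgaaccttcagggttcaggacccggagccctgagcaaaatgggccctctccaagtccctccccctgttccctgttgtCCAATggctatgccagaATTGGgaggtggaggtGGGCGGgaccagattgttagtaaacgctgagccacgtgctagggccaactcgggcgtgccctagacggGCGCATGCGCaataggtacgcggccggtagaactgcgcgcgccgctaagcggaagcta
The Tob1 window held 3 GC boxes, 2 CCAAT boxes and 1 TATA box. It was the only window with a TATA box among the 26 decay genes with a promoter entry, against 13.6% of all 32544 windows. The Pan2 window held 3 CCAAT boxes and no GC box. A GC box stood in 3 of 5 windows of genes that fell, in 2 of 2 windows of genes that rose, in 16 of the 26 and in 35.9% of all windows. A CCAAT box stood in 8 of the 26 and 37.4% of all windows, an ETS core in 6 of 26 and 8.91%, and the NRF1 motif in 8 of 26 and 4.63%. The cAMP response element stood in 0 of 26 and in 1.8% of all windows. These matches are descriptions of the letters, and binding was not measured.

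Of the 6 poly(A)-binding protein genes, 0 passed at the higher dose in limma, and 2 had an unadjusted p under 0.05. Pabpc1, the main cytoplasmic form, read 15833 and 15107 units in the higher-dose arrays, against 19265 and 15107 units in controls. These arrays overlapped (−0.14 ± 0.18, adjusted p = 0.663), and the sign turned to 0.14 on values as deposited and 0.069 with equal array medians. Pabpc4l gave 648.3 and 658.0 units at the higher dose, against 401.7 and 442.5 units in controls, and just missed the threshold (0.63 ± 0.15, adjusted p = 0.057). Pabpc1l, whose product is known from oocytes, gave 159.7 and 199.5 units at the higher dose, against 232.2 and 177.2 units in controls. Pabpc2, Pabpc5 and Pabpc6 lay under the median probe, Pabpc2 with deposited values of 7 and 6 units at the higher dose and 2 and 4 units in controls. The sequences of this family are closely alike, so its probes may share signal, which was not tested.

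Among the decapping genes, 0 of 6 passed at the higher dose in limma, and 1 had an unadjusted p under 0.05. Dcp2, the enzyme that removes the cap, read 2822 and 2538 units in the higher-dose arrays, against 2732 and 2955 units in controls. These overlapped (−0.09 ± 0.16, adjusted p = 0.765), and a second Dcp2 probe did not pass either (−0.19, adjusted p = 0.683). The activator Dcp1a stood at −0.31 ± 0.19 (adjusted p = 0.341), and Edc4, a scaffold of the complex, at −0.41 ± 0.20 (adjusted p = 0.256). The enhancer Edc3 gave 663.8 and 801.7 units at the higher dose, against 992.2 and 1138 units in controls (−0.54 ± 0.19, adjusted p = 0.133). For these 3 genes both higher-dose arrays were under both controls. Dcps, which clears the cap fragment left by 3′ to 5′ decay, gave 3667 and 4246 units at the higher dose, against 2525 and 3135 units in controls, the only decapping gene with a positive value (0.49 ± 0.20, adjusted p = 0.183). Dcp1b was near the floor, with deposited values of 3 and 10 units at the higher dose and 8 and 13 units in controls.

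The exonucleases that follow decapping or act in the nucleus were both under their controls. Xrn2, the nuclear enzyme known for its part in ending transcription, read 3650 and 3107 units in the higher-dose arrays, against 7197 and 5702 units in controls. The groups lay apart, and Xrn2 fell 1.90-fold (−0.93 ± 0.19, adjusted p = 0.0439). Its lower-dose arrays, at 6320 and 5932 units, lay within the range of the controls. Xrn1, the cytoplasmic enzyme, gave 301.1 and 275.6 units at the higher dose, against 438.7 and 461.2 units in controls, and did not pass (−0.64 ± 0.15, adjusted p = 0.0547).

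Most exosome subunits had positive values. Exosc5, a subunit of the ring, read 7923 and 7039 units in the higher-dose arrays, against 3746 and 3329 units in controls. It rose 2.11-fold (1.08 ± 0.19, adjusted p = 0.0327), and its lower-dose arrays, at 3275 and 4164 units, spread around both controls. Exosc3, which caps the ring and binds RNA, gave 4648 and 3937 units at the higher dose, against 2332 and 2120 units in controls. It rose 1.92-fold (0.94 ± 0.16, adjusted p = 0.0319), with both arrays above every other array. The ring subunit Exosc4 gave 5255 and 5924 units at the higher dose, against 2272 and 3087 units in controls, by its brighter probe (2.11-fold, 1.08 ± 0.20, adjusted p = 0.0382).

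That rise of Exosc4 rests on 1 of 2 probes. The second Exosc4 probe gave 2479 and 2455 units in higher-dose arrays, against 2370 and 2508 units in controls (0.017 ± 0.15, adjusted p = 0.957), and the mean of both probes gave 0.55 (adjusted p = 0.101). The cap subunit Exosc1 showed the same kind of split. Its brighter probe gave 12002 and 11375 units in higher-dose arrays, against 7791 and 6235 units in controls, and did not pass (0.75 ± 0.19, adjusted p = 0.0658). The second gave 1724 and 1597 units in higher-dose arrays, against 1754 and 1672 units in controls (−0.045 ± 0.16, adjusted p = 0.885).

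The ring subunits Exosc6, Exosc7 and Exosc8 had both higher-dose arrays above both controls, with log2 changes of 0.34 ± 0.16, 0.35 ± 0.17 and 0.29 ± 0.16 (adjusted p = 0.246 to 0.293). Exosc8 was at 26781 and 23051 units at the higher dose and 20128 and 20400 units in controls. Exosc10, the nuclear exonuclease attached to the ring, was the exception among the bright subunits. It gave 1621 and 1385 units at the higher dose, against 2392 and 1917 units in controls (−0.52 ± 0.20, adjusted p = 0.161). Exosc2 was at background, with deposited values of −3 and −6 units at the higher dose and 4 and −1 units in controls, and no fold is given. The exosome list had a median log2 change of 0.35.

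In nonsense-mediated decay, 1 of 4 genes passed. Upf2, the bridge between the helicase Upf1 and the exon junction complex, read 2802 and 2503 units in the higher-dose arrays, against 4661 and 4985 units in controls. It fell 1.82-fold (−0.86 ± 0.17, adjusted p = 0.0388), and the lower-dose arrays, at 5359 and 4586 units, spread around the controls. Smg6, the endonuclease of the pathway, gave 230.0 and 290.8 units at the higher dose, against 425.8 and 517.0 units in controls, and just missed the threshold (−0.86 ± 0.20, adjusted p = 0.0557). Upf1 had a positive value (0.36 ± 0.15, adjusted p = 0.2), with 965.7 and 894.1 units at the higher dose, against 770.0 and 680.3 units in controls. Smg5, an adaptor that binds phosphorylated Upf1, overlapped (0.17 ± 0.21, adjusted p = 0.633).

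**Figure D2:**
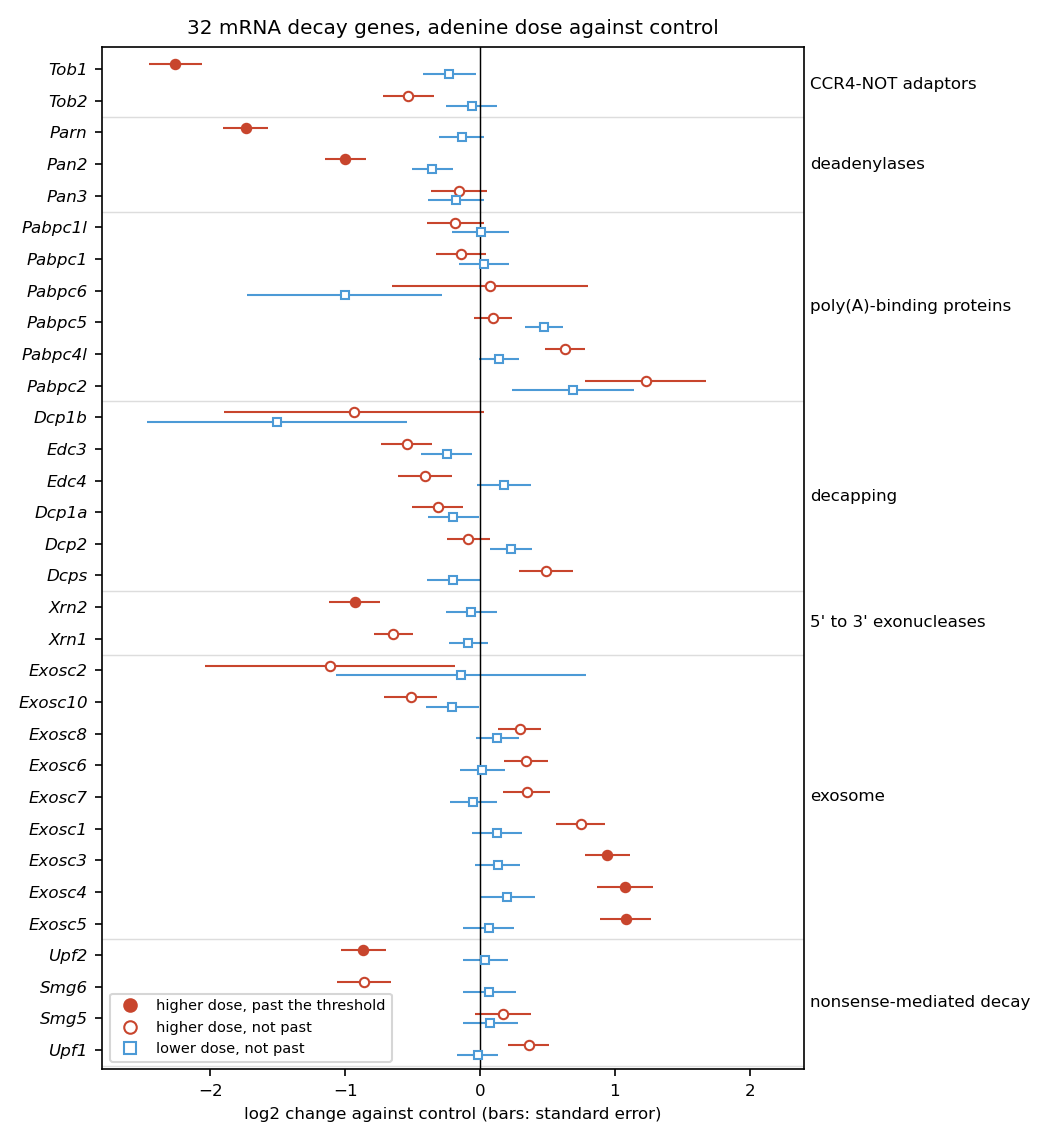
Log2 change against control (horizontal) of the 32 decay genes, grouped by role, with red circles for the higher dose and blue squares for the lower dose. Bars are standard errors and filled circles passed the threshold. Adaptors, deadenylases and 5′ to 3′ exonucleases lie left of 0 at the higher dose, as do 5 of 6 decapping genes. Right of 0 lie 7 of 9 exosome subunits, 4 of 6 poly(A)-binding protein genes and 2 of 4 nonsense-mediated decay genes. At the lower dose 0 genes passed the threshold.

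Over all 32 genes, both higher-dose arrays were above both controls for 12 genes and below both for 12, and 8 overlapped. Such separation is common in these data: over all named genes 63.0% were apart, 30.1% above and 32.9% below.

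At the lower dose against control, 0 of the 32 genes passed in limma, against 0.0169% of all named genes, and 1 had an unadjusted p under 0.05, as had 5.73% of all named genes. Log2 changes ran from −1.51 (Dcp1b, near the floor) to 0.69 (Pabpc2, near the floor), with a median of −0.006 and an even split of 16 positive and 16 negative values. The gene with the smallest p was Pabpc5, a poly(A)-binding protein encoded on the X chromosome, which read 84.7 and 86.7 units at the lower dose, against 60.0 and 63.5 units in controls (0.47 ± 0.14, adjusted p = 0.764). Its higher-dose arrays, at 65.3 and 66.8 units, lay close to the controls. The arrays of 9 genes lay apart from the controls, 5 above and 4 below, and 34.9% of all named genes did so.

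Between the doses, 5 of the 32 genes were lower at the higher dose and 2 were higher (limma, adjusted p under 0.05), while 7.5% of all named genes were lower, 7.74% higher and 15.2% either. This comparison shares the higher-dose arrays with the one against control. Tob1 (−2.03 ± 0.20, adjusted p = 0.018), Parn (−1.60 ± 0.17, adjusted p = 0.018), Upf2 (−0.90 ± 0.17, adjusted p = 0.0316) and Xrn2 (−0.86 ± 0.19, adjusted p = 0.0452) were lower again. Smg6, at 230.0 and 290.8 units against 474.3 and 511.7 units at the lower dose, passed here (−0.93 ± 0.20, adjusted p = 0.042). Pan2 stood at −0.65 ± 0.15 (adjusted p = 0.0523). Exosc5 (1.02 ± 0.19, adjusted p = 0.0329) and Exosc3 (0.81 ± 0.16, adjusted p = 0.0381) were higher, and Exosc4 stood at 0.87 ± 0.20 (adjusted p = 0.0519). With the arrays of these doses alone in the fit, 0 of the 32 passed in limma. No call between the doses held with any of the 6 arrays left out, in fits that leave 1 array in a group. Shares of all named genes in these fits are not given here. In the fit to all arrays 15 had an unadjusted p under 0.05, as had 34.2% of all named genes. That share is not given for genes brighter than the median probe alone.

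Gene span, the distance between the ends of a gene in the GRCm38.p6 annotation, moved with these changes. Over all named genes with a span, the median log2 change at the higher dose against control was 0.13, 0.037, −0.12 and −0.14 in 4 near-equal groups from the shortest to the longest genes. The 3 genes that rose span 3.27 to 8.88 kb, and the 5 that fell span 5.65 to 130.2 kb with a median of 65.2 kb. After each array's trend with span was removed, 7 of the 8 calls held. The share of all named genes called in that fit is not given here, and the part of span in these changes was not tested. Tob1, the shortest gene among those that fell, stood at −2.39 (adjusted p = 0.0137), Parn at −1.60 (adjusted p = 0.0154), Exosc5 at 0.98 (adjusted p = 0.0326) and Upf2 at −0.71 (adjusted p = 0.0485). Xrn2 did not pass (−0.76, adjusted p = 0.0578).

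**Figure D3:**
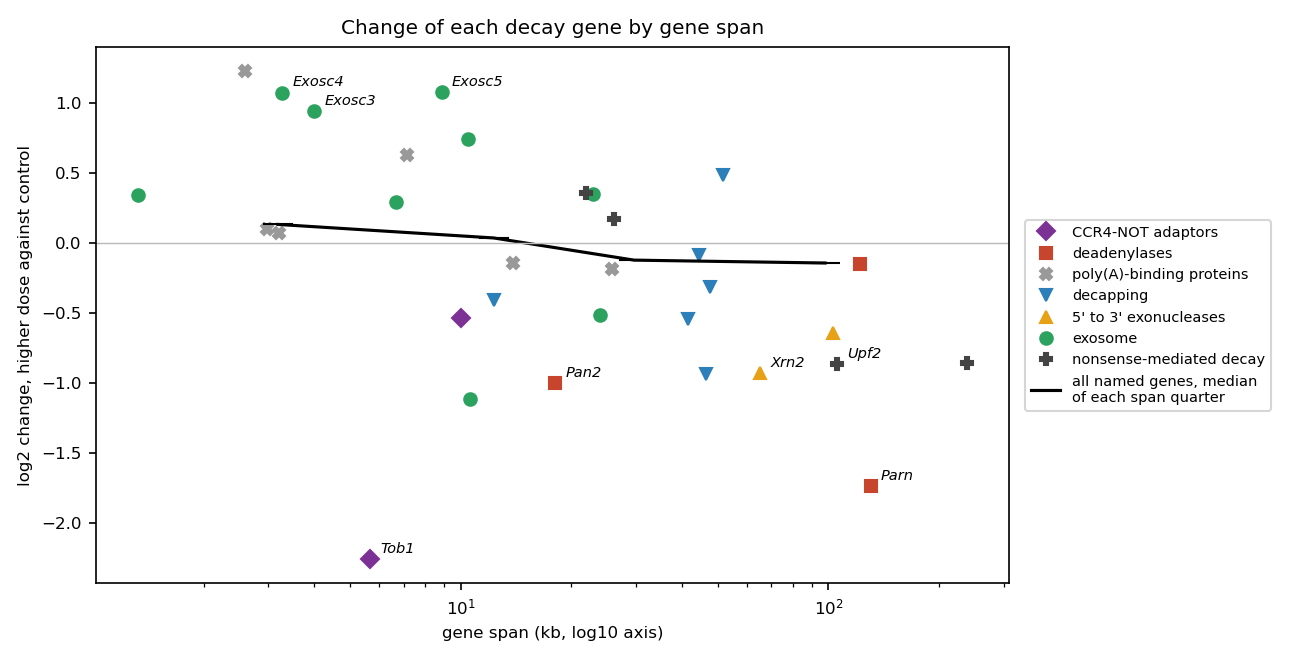
Log2 change at the higher dose against control (vertical) of each of the 32 decay genes by gene span in kb (horizontal, log10 axis), with symbols for roles. The black line joins the medians of all named genes in 4 groups by span, 0.13 to −0.14; Tob1 is a short gene far under the line, and the exosome genes Exosc3, Exosc4 and Exosc5 are short genes above it.

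Other genes of mRNA decay, outside the naming rule, were taken as 6 lists of 83 genes, of which 74 were measured. The lists were chosen with earlier results of these data known, so counts of calls in them are description only. At the higher dose against control, 14 of the 74 fell and 5 rose, with a median log2 change of −0.19, where 5.39% of all named genes fell and 6.37% rose, or 7.7% and 9.55% of those brighter than the median probe. No call among the 74 held without a control or higher-dose array, in fits that leave 1 array in that group. The median log2 change of the 74 in those fits was −0.27 to −0.15. Fewer of the 74 passed without a lower-dose array than with all arrays. Shares of all named genes in the fits with an array left out are not given here. Lsm14a, Elavl1, Tut7 and Noct did not pass in any fit that left out an array, and of these 6 fits Mtrex passed only in that without lower-dose replicate 1. The counts by list are read against the same shares of all named genes. At the lower dose 0 of the 74 passed in limma.

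The enzymes and helpers that work with the exosome barrel had 3 calls, all negative, and their difference from the barrel subunits was not tested. Of 16 exosome catalytic subunits and cofactors, 3 fell, 0 rose and 14 had negative values (median −0.40), where 9129 of 17742 named genes had negative values. Dis3 did not pass in limma (−0.74 ± 0.18, adjusted p = 0.0643). Neither did Dis3l and Dis3l2 (−0.24 and −0.13, adjusted p = 0.508 and 0.639). These genes were named after their values were seen. Mtrex, the helicase that feeds RNA to the nuclear exosome, read 12040 and 10545 units in the higher-dose arrays, against 22246 and 21531 units in controls (−0.96 ± 0.15, adjusted p = 0.0275). Hbs1l, a factor that rescues stalled ribosomes and whose gene also gives a linker to the cytoplasmic exosome, gave 10.7 and 8.5 units at the higher dose, against 62.3 and 68.8 units in controls. The probe lay under the median probe and its higher-dose readings near the floor, so no fold is given. The log2 change was −2.78 ± 0.21 (adjusted p = 0.0163), and −1.67 with 16 units added before log2.

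Decapping activators had calls in both directions. Of 14 measured, 4 rose and 1 fell (median 0.40). The 4 that rose were Lsm1, Lsm2, Lsm3 and the helicase gene Ddx6, of which Lsm1, Lsm2 and Ddx6 were named after their values were seen. Lsm1 and Ddx6 have 2 probes each and Lsm2 has 3, and only the brightest of each is given here. Ddx6 passed narrowly (0.73 ± 0.15, adjusted p = 0.0459). The ring of LSM proteins binds the ends of deadenylated mRNAs and promotes decapping. Lsm3 gave 7954 and 7089 units at the higher dose, against 3148 and 3293 units in controls (2.33-fold, 1.22 ± 0.15, adjusted p = 0.0204). Lsm14a, a binding partner of Ddx6, read 3999 and 3590 units, against 8065 and 6787 units in controls (−0.97 ± 0.17, adjusted p = 0.0329).

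In the BTG and RNA-binding decay factors, 3 of 15 fell and 1 rose (median −0.18). Pum2, a repressor that binds 3′ UTRs and recruits deadenylases, gave 3515 and 3629 units at the higher dose, against 8410 and 7405 units in controls (−1.14 ± 0.17, adjusted p = 0.0255). Its second probe gave −1.24 (adjusted p = 0.0242). Elavl1, which encodes HuR, a protein that stabilises AU-rich mRNAs, fell at the brighter of its probes (−1.35 ± 0.22, adjusted p = 0.0293). A dim second probe did not pass (−0.47, adjusted p = 0.294), and neither did the mean of its probes (−0.91). The call of the brighter probe was also lost on values as deposited. The gene that rose was Zfp36, which encodes tristetraprolin, a promoter of the decay of AU-rich mRNAs, named after its values were seen.

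Among 10 microRNA silencing genes, 1 fell and 0 rose (median −0.20). Ago2, the Argonaute that cuts targets, read 568.8 and 607.5 units in the higher-dose arrays, against 2426 and 2637 units in controls, by its brightest probe (4.30-fold, −2.11 ± 0.22, adjusted p = 0.0199). Its other probes did not pass (−0.77 and −0.35, adjusted p = 0.0635 and 0.313), and the mean of its probes gave −1.07 (adjusted p = 0.0237). Dicer1, which cuts microRNA precursors, just missed (−0.96 ± 0.21, adjusted p = 0.0504).

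The exon junction and release factor list had 3 of 8 genes that fell and 0 that rose (median −0.006). Gspt1, the release factor eRF3a, gave 7729 and 7113 units at the higher dose, against 20759 and 17631 units in controls (−1.37 ± 0.18, adjusted p = 0.0215), and its second probe did not pass (−0.57, adjusted p = 0.0854). Ncbp1, the large cap-binding subunit of the nucleus, read 2646 and 2722 units, against 5445 and 6368 units in controls (−1.13 ± 0.21, adjusted p = 0.0369).

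Poly(A)-binding protein partners, other deadenylases and tailing enzymes had 3 of 11 genes that fell and 0 that rose (median −0.38). Noct, a deadenylase-like protein of the clock that is known as a phosphatase of NADP(H), gave 770.3 and 927.0 units at the higher dose, against 1995 and 1501 units in controls (−1.03 ± 0.21, adjusted p = 0.0418), and a second probe did not pass (−0.67, adjusted p = 0.0624). Tut7, which adds uridines to mRNAs with short tails, stood at −0.74 ± 0.15 (adjusted p = 0.0416), and did not pass after the span trend was removed (−0.59, adjusted p = 0.0629). CCR4-NOT subunits under older symbols, looked up after the values were seen, did not pass: Cnot11 stood at −0.70 ± 0.23 (adjusted p = 0.117) and Cnot9 at −0.17 ± 0.15 (adjusted p = 0.532).

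**Figure D4:**
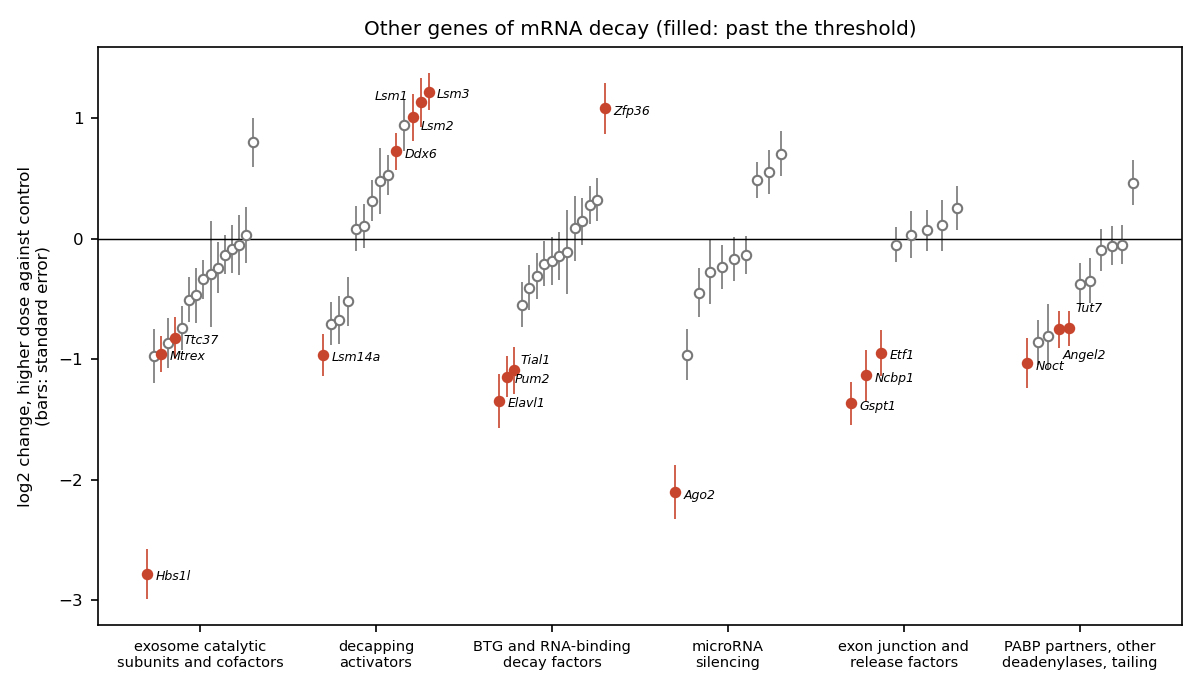
Log2 change at the higher dose against control (vertical, bars are standard errors) of the 74 other decay genes in 6 lists. Filled red points passed the threshold and are named; 14 lie under 0, and the 5 above 0 are Lsm1, Lsm2, Lsm3, Ddx6 and Zfp36.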

How the data were processed

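RNA of BV2 cells was turned into Cy5-labelled cDNA for Phalanx OneArray slides, which have 1 colour, per the labels' protocols. What the authors deposited is linear intensity, in whole numbers that can be negative. The submitters' processing notes name RMA, which gives log values with equal distributions; the deposited intensity values are linear with unequal medians, so the arrays were quantile-normalized. Between 196 and 315 probes per array were under 1 unit; values under 1 were set to 1 and log2 was taken. All 26423 probes on 6 arrays were fitted with limma 3.58.1 in R 4.3.3 (a two-sided test on group means with 3 residual degrees of freedom, and p adjusted by Benjamini-Hochberg over all probes at a threshold of 0.05). No member reached 65000 units. No filter on dim probes was applied, and 27 of the 32 genes lay above the median probe.

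Of the probes, 20377 had 1 platform symbol, 0 several and 6046 none; 18213 symbols matched RefSeq (GRCm38.p6) exactly and 2126 by a synonym, and 38 were kept. The fit was also run on simulated data with independent noise in each array, and its outcome is not given here. That run cannot show how effects shared by arrays would change the calls. The members and lists were chosen with earlier results of these data known. All members are accounted for; values by array are given for those past the threshold and for the smallest p of each role, and of each other list the 2 genes of smallest p are named. Alternatives were no normalization, equal medians, only brighter probes, an offset of 16 units before log2, blocking on replicate number, only the groups compared, a trended prior, removal of the span trend, the mean of a gene's probes, a threshold of 0.01, and each array left out.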

Additional observations from a re-analysis of the deposited data

How the results depend on the processing

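The number of arrays, 2 per group, limits the precision. Shares of all named genes under the alternatives are not given here, so the counts below do not set the decay genes apart from others. Fits with only brighter probes leave out Dcp1b, Exosc2, Pabpc2, Pabpc5 and Pabpc6. At the higher dose against control, 8 of 32 genes passed. The count was 15 with only brighter probes, 4 with only the groups compared, 0 with the replicate number as a block and 0 at an adjusted p of 0.01. It ranged from 0 to 4 with an array left out. Between the doses, 7 passed, and the count was 15 with only brighter probes, 12 with log2(value + 16), 14 with a trended prior, 2 with the replicate block, and 0 with only the groups compared, at 0.01 and with any array left out. At the lower dose against control the count was 0 in limma under every alternative run. Of the 74 other decay genes, 19 passed at the higher dose against control, and the count was 34 of 68 with only brighter probes, 33 with a trended prior, 29 with the offset of 16, 12 on values as deposited, 7 with only the groups compared and 0 with the replicate block.

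Same-numbered arrays share a replicate number, and the labels name no batch or pairing. Their replicate differences correlated at r = −0.23 between the doses, 0.31 between higher dose and control and 0.033 between lower dose and control. These correlations cannot tell whether same-numbered arrays shared a run, so whether the block matches the design is not known.

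The median log2 change of the 32 genes at the higher dose against control (−0.15) ranged from −0.328 to 0.00589 with an array left out, the extremes without control replicates 2 and 1. At the lower dose against control (−0.006) it ranged from −0.08 to 0.04. On values as deposited it was 0.16, where all named genes stood at 0.215. Between the doses (−0.14) it ranged from −0.17 to −0.08, and on values as deposited it was −0.30, where all named genes stood at −0.24.

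Signs of some changes that did not pass turned at the higher dose against control. With the span trend removed, Dcp2 stood at 0.0657, Pabpc5 at −0.0533 and Pabpc6 at −0.0811. Pabpc1 stood at 0.143 as deposited and 0.0691 with equal medians. With an array left out, Pabpc1 ranged from −0.319 to 0.0323, Pabpc1l from −0.378 to 0.0118, Pabpc6 from −0.36 to 0.509 and Pan3 from −0.338 to 0.0351. The cause was not tested. On values as deposited, Exosc4, Upf2 and Xrn2 lost their calls at the higher dose against control. Exosc4 also lost its call with equal array medians. No called member changed sign under any alternative run.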
